A study of Mus musculus with 12 samples.

Results

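The genes described here are 40 genes of mitosis and the G2/M transition, taken by name from a prepared list and matched to a table of 54100 genes, in which all 40 were found. They were counted in 12 RNA libraries of fibro-adipogenic progenitors (FAPs), the mesenchymal cells that lie between muscle fibres, sorted as Pdgfra+ cells from the plantaris, a calf muscle of the mouse. There were 4 groups of 3 libraries. cdKO overload came from overloaded plantaris of mice with Pdgfra-CreERT2, Yap1 flox/flox and Taz flox/flox alleles, in which Cre can delete Yap1 and Taz (gene symbol Wwtr1), the co-activators at the end of the Hippo pathway, and control overload came from overloaded plantaris of Pdgfra-CreERT2 mice. cdKO sham and control sham came from sham plantaris of the same 2 genotypes. All 4 groups carry the Pdgfra-CreERT2 driver, so deletion is limited to cells that express Pdgfra and depends on how fully Cre acted. The labels give neither the ages of the mice nor the time between surgery and sorting.

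Mitosis is driven by the kinase Cdk1, which is active when bound to cyclins A and B. Condensin and topoisomerase II shape the chromosomes, motor proteins and microtubule binders build the spindle, and the spindle checkpoint holds back the anaphase-promoting complex until every kinetochore is attached. Most of these genes are transcribed in G2 and M phase and are nearly silent in resting cells, and FAPs of uninjured adult muscle are known to be mostly resting. In sorted bulk samples a higher share of cycling cells and more RNA per cycling cell cannot be told apart.

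The libraries were made from 1000 sorted cells each by a 3′-end counting method, and their total counts ran between 691150 and 952589 in cdKO overload, 590236 and 1564581 in control overload, 559911 and 1019875 in cdKO sham and 336437 and 793842 in control sham. Values are given as counts-per-million (CPM), scaled by edgeR's TMM factors; 3 counts in a library correspond to 1.95 to 9.72 CPM. Among the deleted genes, Wwtr1 (Taz) stood at 18.2 to 22.5 CPM in cdKO overload against 125 to 174 CPM in control overload, and at 27.1 to 40.6 CPM in cdKO sham against 108 to 126 CPM in control sham. Yap1 was at 22.1 to 40.2 CPM in cdKO overload against 39.7 to 91.3 CPM in control overload, ranges that overlap, and at 56.2 to 71.5 CPM in cdKO sham against 91.6 to 108 CPM in control sham. Whether each library of a group is a mouse of its own is not stated, so p-values here reflect only library-to-library variation, part of which may be technical.

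Overloaded muscle yielded FAPs with more mitotic RNA in both genotypes, and the 2 sham groups lay close together. Summed over the 40 genes, the level was 1055, 521 and 997 CPM in cdKO overload, 1068, 1993 and 1641 CPM in control overload, 469, 355 and 491 CPM in cdKO sham and 387, 305 and 496 CPM in control sham. Every overload library lay above every sham library, and 1 library in each overload group lay nearest to sham, cdKO overload replicate 2 at 521 CPM and control overload replicate 1 at 1068 CPM. The group means were 858 ± 293 CPM (SD, n = 3 libraries, as throughout) in cdKO overload, 1568 ± 467 in control overload, 438 ± 73.0 CPM in cdKO sham and 396 ± 95.7 in control sham. The ratio of overload to sham was 1.96 in cdKO and 3.96 in control, and the ratio of cdKO to control was 0.547 in overloaded and 1.11 in sham muscle. No test was made on the sum, since the genes were chosen with results of these libraries known. In overloaded muscle the highest cdKO library, at 1055 CPM, and the lowest control library, at 1068 CPM, were nearly level. The gap between them is smaller than the counting error of either sum, so the genotypes cannot be called apart on this measure.

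**Figure D1:**
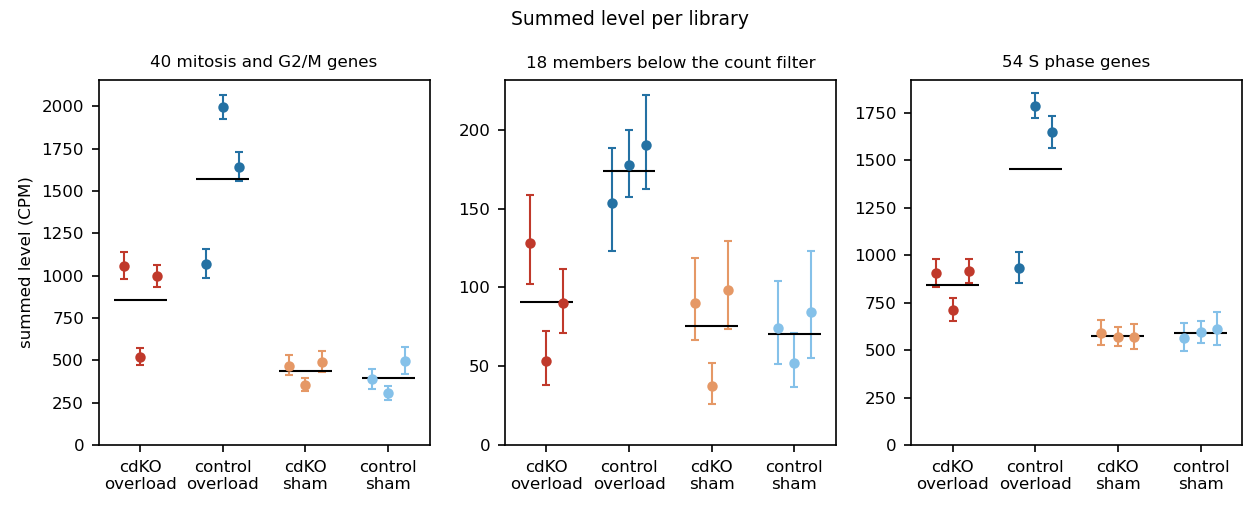
Summed level (CPM, vertical axis from 0) in each library of the 40 mitosis and G2/M genes, of the 18 of them that had too few counts for testing, and of 54 S phase genes. Points are libraries, error bars are exact 95% Poisson intervals that cover counting error only, and horizontal lines are group means; for the 40 genes the means are 858, 1568, 438 and 396 CPM from left to right, and cdKO overload replicate 2 lies nearest to the sham libraries.

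The number of counts behind these sums was small. The 40 genes held 683, 401 and 888 counts in cdKO overload, 620, 3071 and 1406 in control overload, 256, 341 and 254 in cdKO sham and 172, 223 and 153 in control sham. Bub3 and Cks1b gave 23.0% to 45.3% of these counts in each library. Of the 40 genes, 22 passed the filter on low counts and were tested with the 8161 genes that passed, and 18 did not.

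Under overload in cdKO, 5 of the 22 tested genes rose and 0 fell: Top2a, Smc2, Smc4, Cks1b and Tacc3. Over all genes tested, 13% were called in this comparison and 6.37% were called higher. Under overload in control, 18 of the 22 rose and 0 fell, against 21.7% of all genes tested called and 10.6% called higher. The 4 that did not pass in control were Mki67, Anln, Cenpe and Kif23. The median log2 fold change of the 22 was 1.29 in cdKO and 2.38 in control, while that of all genes tested was -0.02 and -0.05. Every overload library lay above every sham library for 7 of the 22 in cdKO and 20 of the 22 in control, where 15.4% and 18% of all genes tested did so. Over the 40 the numbers were 10 and 26, but those shares do not cover the untested members, some of which separated only near the floor. The filter kept genes partly through the groups in which they are high, so these medians do not stand for all 40. A call here is an adjusted p under 0.05 by edgeR's quasi-likelihood test with Benjamini-Hochberg adjustment over the 8161 genes. Without cdKO overload replicate 2, the library nearest to sham, 9 of 27 tested members were called higher in cdKO, the additions being Cdk1, Ccna2, Birc5 and Ckap2, against 15% of all genes called in either direction in that setting. With all counts thinned to the smallest library, 6 of the 10 members still tested were called in control, against 14.2% of all genes.

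**Figure D2:**
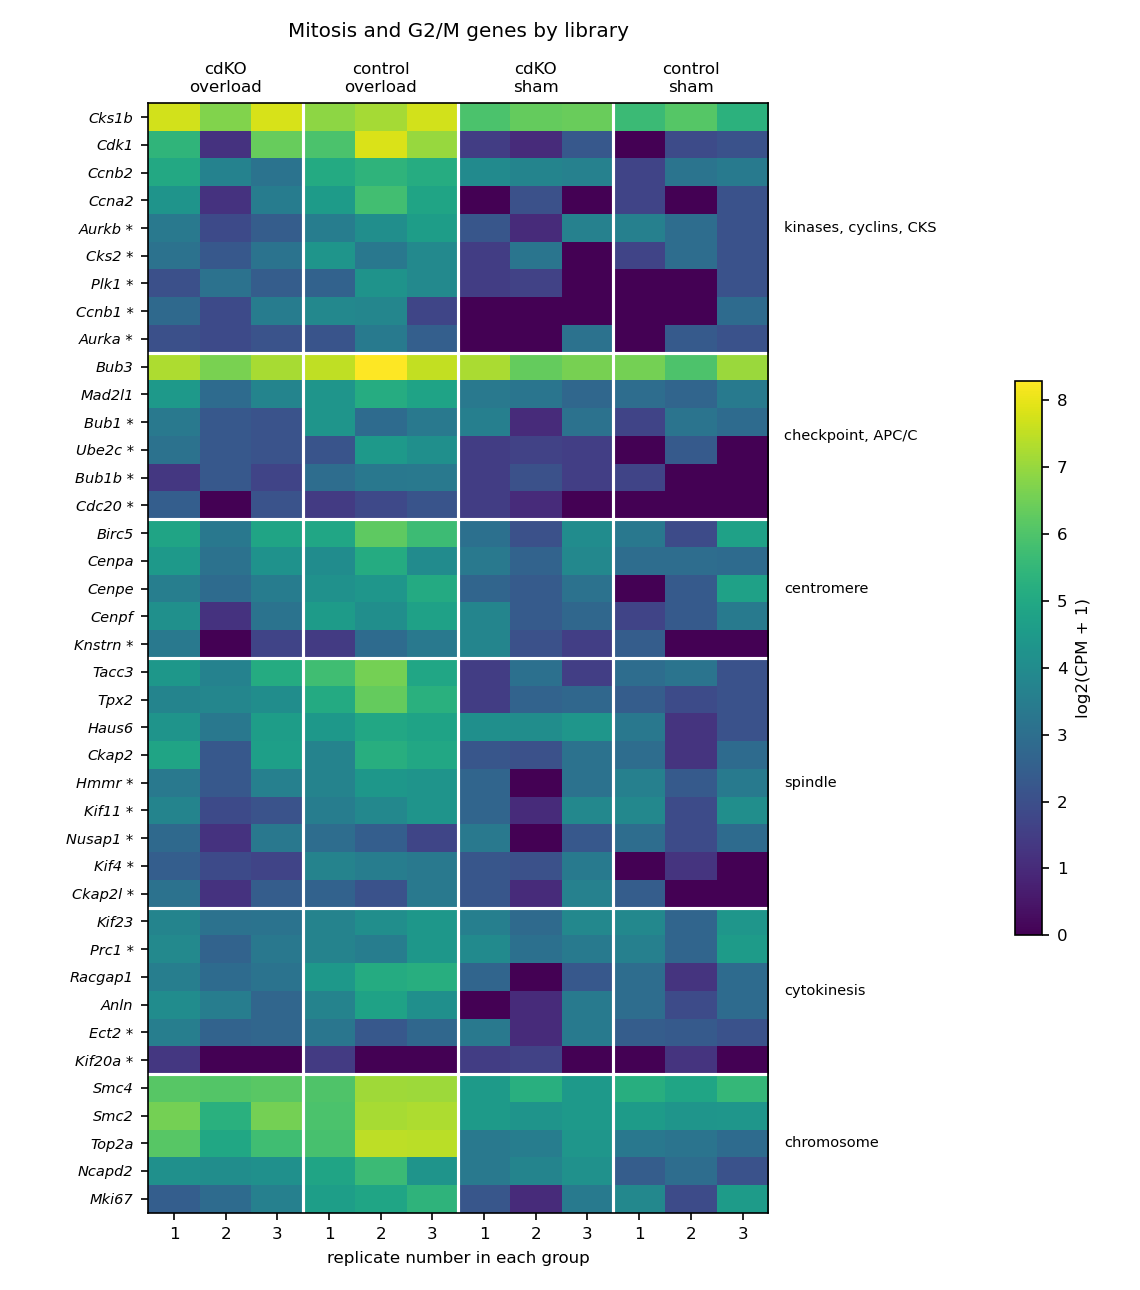
Level of each of the 40 genes (rows, grouped by role, with an asterisk on the 18 that were not tested) in each of the 12 libraries (columns, by group and replicate number), as log2(CPM + 1) in colour. Cks1b, Bub3, Smc2, Smc4, Top2a and Cdk1 have the brightest overload columns, the 2 sham groups are dark in most rows, and Cdk1 in cdKO overload replicate 2 (1.30 CPM) looks like sham.

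Of 5 tested genes of chromosome structure, 3 rose in cdKO and 4 in control. Top2a (chromosome 11, 98992943 to 99024189, minus strand, GRCm38, as for all coordinates) encodes the topoisomerase that untangles replicated DNA. It was at 69.5, 29.9 and 52.8 CPM in cdKO overload, 58.6, 178 and 173 in control overload, 9.17, 10.4 and 19.3 in cdKO sham and 9.01, 8.20 and 6.48 in control sham. All 6 overload libraries lay above all 6 sham libraries. The log2 fold change of overload over sham was 1.99 ± 0.45 (SE) in cdKO (edgeR adjusted p = 0.00545) and 4.08 ± 0.48 in control (adjusted p = 3.45e-06). The call in cdKO was lost without cdKO sham replicate 2 (1.79, adjusted p = 0.0540). A small RNA gene, Gm23451, lies on the same strand within Top2a exons.

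Smc2 and Smc4, the paired ATPases at the core of both condensins, rose in both genotypes. Smc2 (chromosome 4, 52439243 to 52488260, plus strand) had levels of 94.2, 37.7 and 94.3 CPM in cdKO overload, 60.3, 148 and 153 in control overload, 22, 18.7 and 21.3 in cdKO sham and 22.5, 19.1 and 19.4 in control sham. Its 6 sham libraries lay between 18.7 and 22.5 CPM and below every overload library. The log2 fold changes were 1.87 ± 0.39 in cdKO (adjusted p = 0.00247) and 2.58 ± 0.40 in control (adjusted p = 6.0e-05). Smc4 was at 69.5, 66.3 and 71.9 CPM in cdKO overload, 63.7, 138 and 134 in control overload, 22, 36.4 and 21.3 in cdKO sham and 36.0, 28.7 and 45.4 in control sham, again with no overlap between loads. Its log2 fold changes were 1.32 ± 0.33 in cdKO (adjusted p = 0.00839) and 1.68 ± 0.32 in control (adjusted p = 0.000557). With a term for Y-linked counts in the model, described further on, the control value was 0.84 and its call was lost (adjusted p = 0.218).

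Ncapd2, a subunit of condensin I alone, which shares exon sequence with Gm28967 and Scarna10, rose in control. It was at 17.0, 15.6 and 16.8 CPM in cdKO overload, 27.6, 49.3 and 18.7 in control overload, 9.17, 12.5 and 17.4 in cdKO sham and 4.5, 6.84 and 3.24 in control sham. The loads overlapped in cdKO, at 0.35 ± 0.45 (adjusted p = 0.684), and were apart in control, at 2.60 ± 0.52 (adjusted p = 0.000801). Mki67, the Ki-67 antigen that coats mitotic chromosomes and is the common marker of cycling cells, did not pass in either genotype. It was at 4.63, 6.5 and 11.2 CPM in cdKO overload, 24.1, 28.6 and 40.9 in control overload, 3.67, 1.04 and 9.66 in cdKO sham and 13.5, 2.73 and 22.7 in control sham. The control loads did not overlap, but the fold change of 1.47 ± 0.59 had an adjusted p of 0.0749; in cdKO it was 0.85 ± 0.75 (adjusted p = 0.506).

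Among the kinases, cyclins and their small partners, all 4 tested genes rose in control and 1 of 4, Cks1b, rose in cdKO. Cdk1 itself lies on the minus strand of chromosome 10 (69335146 to 69352938). Its level was 41.7, 1.30 and 82.0 CPM in cdKO overload, 60.3, 227 and 128 in control overload, 1.83, 1.04 and 3.87 in cdKO sham and 0, 2.73 and 3.24 in control sham. cdKO overload replicate 2 lay inside the sham range and the other cdKO overload libraries were far above it. In counts, Cdk1 had 101 against 4 in cdKO and 495 against 3 in control, ratios of depth-scaled pooled counts of 22.1 (95% exact counting interval 8.39 to 82.8) and 82.2 (28.0 to 400.2). The fitted log2 fold changes were 4.29 ± 1.37 in cdKO (adjusted p = 0.0724) and 6.03 ± 1.32 in control (adjusted p = 0.0101). The control call was lost without control sham replicate 1 (adjusted p = 0.0514) or replicate 2 (adjusted p = 0.0527), by limma voom (0.190) and with the Y-linked term (0.146).

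Ccna2, cyclin A2, followed the same outline at lower counts. It was at 18.5, 1.30 and 10.1 CPM in cdKO overload, 22.4, 54.5 and 28.0 in control overload, 0, 3.12 and 0 in cdKO sham and 2.25, 0 and 3.24 in control sham. The control groups held 121 against 2 counts, a pooled ratio of 30.2 (8.17 to 252), with a fitted log2 fold change of 4.54 ± 0.91 (adjusted p = 0.000963). In cdKO there were 22 against 3 counts, a pooled ratio of 6.43 (1.93 to 33.6), and the test did not pass (2.63 ± 0.95, adjusted p = 0.0706). An exon of Exosc9 on the opposite strand overlaps Ccna2, and the sources used here do not give the strand setting of the counting.

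Ccnb2, cyclin B2, rose in control and did not pass in cdKO. It was at 30.9, 11.7 and 7.86 CPM in cdKO overload, 32.7, 40.9 and 33.9 in control overload, 14.7, 12.5 and 11.6 in cdKO sham and 2.25, 8.20 and 9.72 in control sham. Its fold changes were 0.33 ± 0.48 in cdKO (adjusted p = 0.727) and 2.41 ± 0.52 in control (adjusted p = 0.00176), a call lost with thinned counts (0.0862). Cks1b, which docks substrates on cyclin-dependent kinases and also helps target the inhibitor p27 for degradation, was at 210.1, 105 and 219 CPM in cdKO overload, 117, 144 and 209 in control overload, 60.5, 79.1 and 83.1 in cdKO sham and 49.5, 68.4 and 38.9 in control sham. The loads did not overlap in either genotype, and the fold changes were 1.26 ± 0.29 in cdKO (adjusted p = 0.00562) and 1.53 ± 0.31 in control (adjusted p = 0.000922). Of the 50-base stretches in the last 500 bases of its transcripts, 9.09% also occur in other genes.

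Of the spindle genes, Tacc3 rose in both genotypes and Tpx2, Haus6 and Ckap2 in control. Tacc3, which holds spindle microtubules together, was at 20.1, 11.7 and 33.7 CPM in cdKO overload, 53.4, 92.8 and 29.2 in control overload, 1.83, 7.29 and 1.93 in cdKO sham and 6.76, 8.20 and 3.24 in control sham. Its fold changes were 2.32 ± 0.61 in cdKO (adjusted p = 0.0133) and 3.14 ± 0.55 in control (adjusted p = 0.000246). The cdKO call was lost without cdKO sham replicate 1 (adjusted p = 0.0614), cdKO sham replicate 3 (0.0551), cdKO overload replicate 3 (0.114), with thinned counts (0.0648) or by limma voom (0.139), and Tmem129 overlaps Tacc3 on the opposite strand. Tpx2, which activates Aurora A on the spindle, was at 12.4, 13 and 15.7 CPM in cdKO overload, 32.7, 79.2 and 37.4 in control overload, 1.83, 5.21 and 5.80 in cdKO sham and 4.5, 2.73 and 3.24 in control sham. The 4 groups thus formed 3 tiers without overlap, with the 2 sham groups sharing the lowest. Its fold change was 3.86 ± 0.54 in control (adjusted p = 1.87e-05) and 1.61 ± 0.55 in cdKO (adjusted p = 0.0551).

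Haus6, a subunit of augmin, which nucleates microtubules inside the spindle, rose in control and did not pass in cdKO. It was at 18.5, 9.10 and 23.6 CPM in cdKO overload, 20.7, 30.5 and 26.9 in control overload, 16.5, 15.6 and 19.3 in cdKO sham and 9.01, 1.37 and 3.24 in control sham. Every cdKO sham library of Haus6 lay above every control sham library, as for Top2a, Ccnb2 and Ncapd2, where 5.44% of all genes tested did so. For Top2a the nearest libraries stood at 9.17 CPM (5 counts) and 9.01 CPM (4 counts), too close to tell apart. The untested Kif4 had 2, 3 and 5 counts in cdKO sham and 0, 1 and 0 in control sham, near the floor. The cdKO loads of Haus6 overlapped. The fold change was 2.62 ± 0.58 in control (adjusted p = 0.00186) and 0.02 ± 0.45 in cdKO (adjusted p = 0.988). Ckap2, a microtubule-associated protein of the spindle poles, was at 27.8, 3.90 and 24.7 CPM in cdKO overload, 12.1, 35.7 and 30.4 in control overload, 3.12 to 7.73 in cdKO sham and 1.37 to 6.76 in control sham. It rose in control by 2.64 ± 0.71 (adjusted p = 0.00927) and had 2.0 ± 0.68 in cdKO (adjusted p = 0.0525). The control call was lost without control sham replicate 2 (0.0778) or control overload replicate 2 (0.0501), with thinned counts (0.0870) and with the Y-linked term (0.188).

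**Figure D3:**
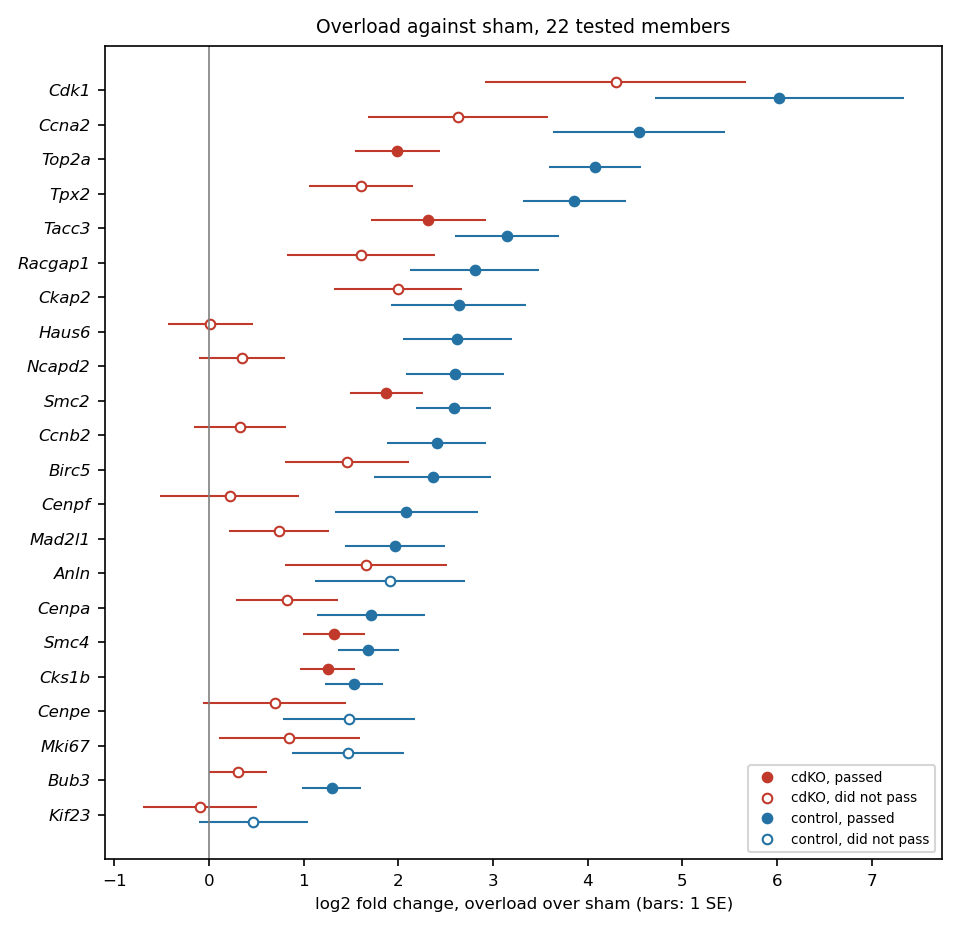
Log2 fold change of overload over sham in cdKO (red) and control (blue) for the 22 tested genes, ordered by the control value, with bars of 1 SE; filled points passed at an edgeR adjusted p under 0.05. Of the filled points, 5 are red and 18 are blue, and the blue point of each gene lies to the right of its red point.

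The 2 tested members of the spindle checkpoint rose in control and did not pass in cdKO. Bub3, which brings the checkpoint kinases to kinetochores, was at 154, 98.8 and 146 CPM in cdKO overload, 181, 314 and 186 in control overload, 152, 79.1 and 94.7 in cdKO sham and 94.6, 61.5 and 133 in control sham. It had high values in sham libraries as well, and its fold changes were 0.31 ± 0.30 in cdKO (adjusted p = 0.569) and 1.30 ± 0.31 in control (adjusted p = 0.00400), a call lost with thinned counts (0.0707) and with the Y-linked term (0.0779). Mad2l1, the inhibitor that binds Cdc20, was at 21.6, 6.5 and 12.3 CPM in cdKO overload, 19.0, 34.4 and 26.9 in control overload, 5.80 to 9.17 in cdKO sham and 5.47 to 9.72 in control sham. Its fold changes were 0.74 ± 0.53 in cdKO (adjusted p = 0.390) and 1.97 ± 0.53 in control (adjusted p = 0.00915). The control call was lost without control sham replicate 2 (0.0557) or control overload replicate 2 (0.0690), and with the Y-linked term (0.180).

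At the centromere, Birc5, Cenpa and Cenpf rose in control, Cenpe did not pass, and none of the 4 passed in cdKO. Birc5, survivin, a part of the chromosomal passenger complex with Aurora B, averaged 21.7 ± 10.9 CPM in cdKO overload, 51.4 ± 22.7 in control overload, 8.64 ± 6.27 CPM in cdKO sham and 12.6 ± 12 in control sham. Its fold change was 1.46 ± 0.65 in cdKO (adjusted p = 0.153) and 2.36 ± 0.61 in control (adjusted p = 0.00959), lost without control sham replicate 1 (0.0563) or 2 (0.0615), with thinned counts (0.204) and with the Y-linked term (0.153). Cenpa, the histone H3 variant that marks centromeres, had 0.83 ± 0.54 in cdKO (adjusted p = 0.347) and 1.71 ± 0.57 in control (adjusted p = 0.0325). Cenpf, a large outer kinetochore protein, had 0.22 ± 0.73 in cdKO (adjusted p = 0.893) and 2.09 ± 0.76 in control (adjusted p = 0.0495).

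The control calls of Cenpa and Cenpf were lost under more of the alternatives run than those of the other 16 genes. Cenpa lost its call without any 1 control sham library (adjusted p between 0.0659 and 0.0917) or without control overload replicate 2 (0.281), by DESeq2 (0.0691) or limma voom (0.128), and with the Y-linked term (0.183). Cenpf lost its call without control sham replicate 1 (0.144) or 2 (0.141), control overload replicate 2 (0.0579) or 3 (0.148), or cdKO overload replicate 3 (0.0501), by DESeq2 (0.0521) or limma voom (0.0531), with upper-quartile scaling (0.0571) and with the Y-linked term (0.0743). Cenpe, the kinesin that carries chromosomes to the spindle equator, was at 10.8, 6.5 and 10.1 CPM in cdKO overload, 17.2, 19.5 and 32.7 in control overload, 5.50, 4.16 and 7.73 in cdKO sham and 0, 4.10 and 25.9 in control sham. One sham library thus lay among the overloaded ones, and the fold changes were 0.69 ± 0.76 in cdKO (adjusted p = 0.611) and 1.48 ± 0.70 in control (adjusted p = 0.134).

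In cytokinesis 1 of 3 tested genes, Racgap1, rose in control and 0 of 3 passed in cdKO. Racgap1 and Kif23 together form centralspindlin, the complex that positions the cleavage furrow. Racgap1 was at 10.8, 6.5 and 7.86 CPM in cdKO overload, 20.7, 33.8 and 36.2 in control overload, 5.50, 0 and 3.87 in cdKO sham and 6.76, 1.37 and 6.48 in control sham. The loads were apart in both genotypes, with fold changes of 1.61 ± 0.79 in cdKO (adjusted p = 0.186) and 2.81 ± 0.68 in control (adjusted p = 0.00404), a call lost with the Y-linked term (0.0856). Its partner Kif23 was at 12.4, 7.80 and 7.86 CPM in cdKO overload, 12.1, 16.2 and 19.8 in control overload, 11.0, 6.25 and 13.5 in cdKO sham and 13.5, 5.47 and 19.4 in control sham. The 4 groups of Kif23 overlapped, with -0.09 ± 0.60 in cdKO (adjusted p = 0.949) and 0.47 ± 0.57 in control (adjusted p = 0.595). Anln, anillin, the scaffold of the contractile ring, was at 15.4, 10.4 and 5.61 CPM in cdKO overload, 12.1, 26.6 and 16.3 in control overload, 0, 1.04 and 9.66 in cdKO sham and 6.76, 2.73 and 6.48 in control sham. Its fold changes were 1.66 ± 0.85 in cdKO (adjusted p = 0.211) and 1.91 ± 0.79 in control (adjusted p = 0.0839).

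The 18 untested members reached at most 32 counts in a library, so they are given by counts. Counts are not scaled for depth, which ran between 590236 and 1564581 in control overload and 336437 and 793842 in control sham. Together the 18 had 128, 53.3 and 89.8 CPM in cdKO overload, 153, 178 and 190.3 in control overload, 89.8, 37.5 and 98.6 in cdKO sham and 74.3, 52 and 84.2 in control sham. The control loads were apart and the cdKO loads overlapped, and the ratio of overload to sham means was 2.48 in control and 1.20 in cdKO. The mean was higher in overload than in sham for 17 of the 18 in control and for 11 of the 18 in cdKO.

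Among the kinases in this group, Plk1, Polo-like kinase 1, had 2, 6 and 4 counts in cdKO overload, 3, 28 and 12 in control overload, 1, 2 and 0 in cdKO sham and 0, 0 and 1 in control sham. Its pooled ratio in control was 21.4, with an exact counting interval of 3.65 to 866. Ccnb1, cyclin B1, had 4, 2 and 9 counts in cdKO overload, 8, 20 and 2 in control overload, 0 in all 3 cdKO sham libraries and 0, 0 and 2 in control sham. The mean of Ccnb1 in cdKO overload was 1.31 times a floor of 3 counts per cdKO sham library. That value makes no allowance for counting error in the overload counts, which in replicate 2 lay below 3. Of the 50-base stretches at the 3′ end of Ccnb1, 31.0% occur in other genes, and for Cks2, the sister of Cks1b, the share is 39.9%, so reads of both may have been split or lost.

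Aurkb, the kinase of the passenger complex, had 12 counts in cdKO overload and 51 in control overload, against 9 in cdKO sham and 11 in control sham, summed over 3 libraries. Scaled for depth, its pooled ratio of overload to sham was 1.17 in cdKO and 2.31 in control. Aurka, the kinase of the spindle poles, had 7 and 21 counts in the overload groups of cdKO and control and 4 in each sham group. Ube2c, which with the anaphase-promoting complex marks cyclins for destruction, had 11 and 48 counts in the overload groups of cdKO and control, against 4 and 3 in their sham groups. Its pooled ratio in control was 7.98 (2.57 to 40). Kif4, a kinesin that rides on chromosome arms, had 7 counts in cdKO overload and 31 in control overload, against 10 in cdKO sham and 1 in control sham. Bub1b, the checkpoint protein BubR1, had 6 and 26 counts in the overload groups of cdKO and control, against 5 and 1 in their sham groups.

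The remaining untested members had few counts in every group. Cdc20, the activator that the checkpoint restrains, had 3, 0 and 3 counts in cdKO overload, 1, 4 and 3 in control overload, 1, 1 and 0 in cdKO sham and 0 in all 3 control sham libraries, and no fold is given because both control groups lie near the floor of 3 counts per library. Kif20a, a kinesin of the central spindle, had at most 2 counts in any library. Nusap1 and Ect2, a spindle binder and the exchange factor that switches on RhoA at the furrow, had 13 and 16 counts in each overload group. Nusap1 had 7 in each sham group, and Ect2 had 11 in cdKO sham and 6 in control sham. Scaled for depth, the pooled ratios of overload to sham in cdKO and control were 1.63 and 0.93 for Nusap1 and 1.28 and 1.33 for Ect2. Prc1, which bundles the central spindle, had 21 and 40 counts in the overload groups of cdKO and control, against 20 and 16 in their sham groups. Its pooled ratios were 0.92 in cdKO and 1.25 in control (0.68 to 2.38). Bub1, a checkpoint kinase, Kif11, the motor that keeps the spindle poles apart, Hmmr and Ckap2l, 2 spindle-associated proteins, Knstrn of the kinetochore and Cks2 had 8 to 19 counts in cdKO overload and 16 to 54 in control overload, against 7 to 11 in cdKO sham and 2 to 13 in control sham. When no gene was filtered, 21 of the 40 were called in control, among them Plk1, Ube2c and Kif4 (3.64% of 37990 genes called), and 7 of 40 in cdKO, among them Ccnb1 (1.85% called). Genes on the opposite strand overlap exons of Plk1, Ube2c, Cdc20, Kif20a, Kif4, Nusap1, Prc1, Ckap2l and Knstrn, so reads of these pairs may not have been told apart.

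In overloaded muscle, cdKO FAPs had lower mean levels than control FAPs for 36 of the 40 genes, but no gene passed the test. Of the 22 tested, 0 were called, against 0.0368% of all genes tested, and 15 had an unadjusted p under 0.05 (6.97% of all genes tested); DESeq2 and limma voom also called 0. The fitted values were negative for 21 of 22, with a median of -1.10 (all genes tested, 0.03), and Cks1b was the exception at 0.18 ± 0.27. Tpx2 came closest, at -1.89 ± 0.39 (edgeR adjusted p = 0.0948), with all 3 cdKO libraries below all 3 control libraries. Top2a was at -1.46 ± 0.35 (adjusted p = 0.294), with cdKO overload replicate 1 above control overload replicate 1. Mki67 was at -2.01 ± 0.56 (adjusted p = 0.360) and Racgap1 at -1.86 ± 0.56 (adjusted p = 0.398), both without overlap. Every cdKO library lay below every control library for 9 of the 22, where 5.31% of all genes tested did so. Over the 40 the number was 15, but that share does not cover the untested members, and some of these separated only near the floor. Aurka, for example, had 2, 2 and 3 counts in cdKO overload and 2, 15 and 4 in control overload. The numbers of members are given as a description, since the filter kept the 22 largely through control overload. With the filter applied to the 2 groups of 1 genotype, 20 members passed in control and 8 in cdKO.

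The outcome of this comparison depended on 1 library and on the filter. Without control overload replicate 1, the control library with the lowest sum, Top2a and Tpx2 were called lower in cdKO (2 of 28 members tested, against 0.374% of 9103 genes). With no filter on low counts the same 2 of 40 were called, against 0.0447% of 37990 genes. A p that misses the threshold does not show that the genotypes were alike.

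**Figure D4:**
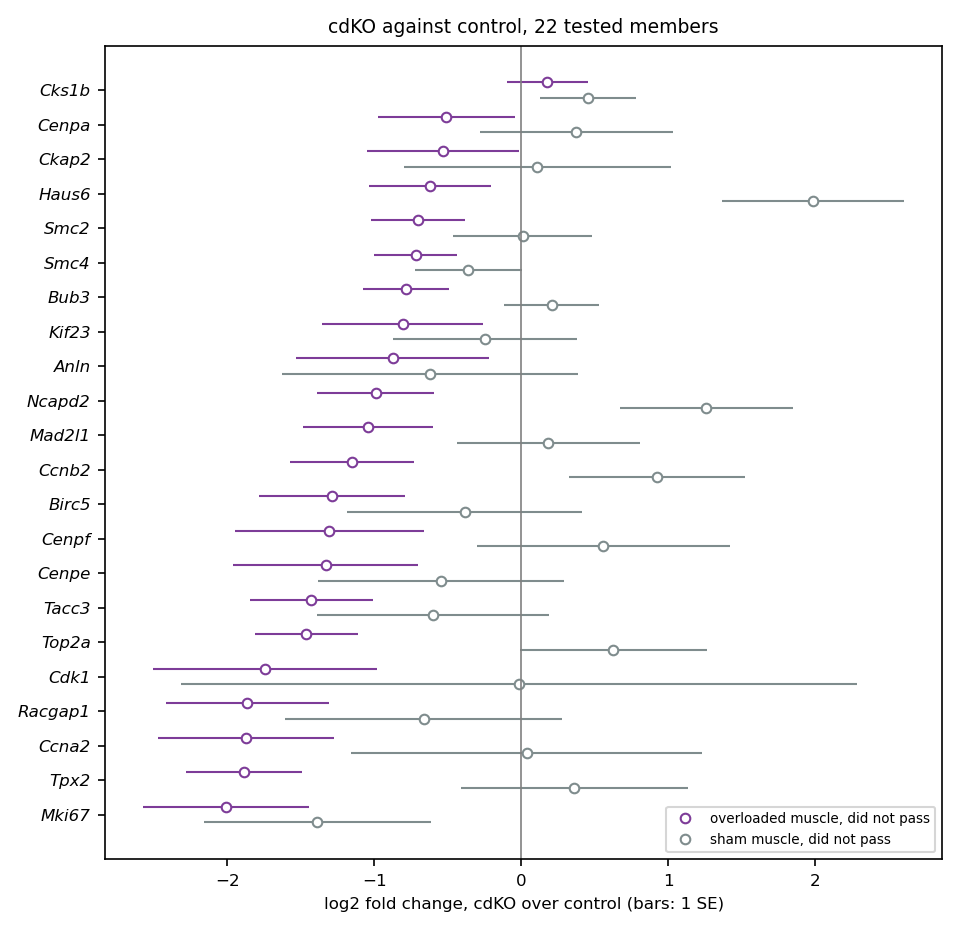
Log2 fold change of cdKO over control in overloaded muscle (purple) and in sham muscle (grey) for the 22 tested genes, with bars of 1 SE; open points did not pass, and none passed. The purple points lie left of 0 for 21 genes, with Cks1b at 0.18, and the grey points lie on both sides of 0.

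In sham muscle no member passed between the genotypes. Of the 22, 0 were called (0.0123% of all genes tested), 2 had an unadjusted p under 0.05 (4.09% of all genes tested), and DESeq2 and limma voom called 0. These 2 were Haus6, at 1.99 ± 0.62 (adjusted p = 0.999), and Ncapd2, at 1.26 ± 0.59 (adjusted p = 0.999). Both had all cdKO sham libraries above all control sham libraries, as did 5.44% of all genes tested. The median over the 22 was 0.07 (all genes tested, 0.01). The difference between the 2 overload responses, tested as an interaction, was called for 0 of 22 (0% of all genes tested), with 6 at an unadjusted p under 0.05 (5.23% of all genes tested) and 0 calls by DESeq2 or limma voom. The 22 estimates were negative, with a median of -0.95 (all genes, 0.02), but none passed, and a filter that members passed mostly through control overload favours that sign. The smallest p belonged to Haus6 (-2.61 ± 0.75, adjusted p = 0.582), Ncapd2 (-2.25 ± 0.71, adjusted p = 0.645) and Top2a (-2.09 ± 0.72, adjusted p = 0.813). The overload and genotype comparisons share libraries, so their values are not independent of each other.

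The promoters of most members share 2 sequence elements that the choice of genes did not use. One is the CCAAT box, the binding motif of NF-Y, searched as those 5 letters on either strand. The other is the cell cycle homology region (CHR), the element bound by the MuvB complex, searched as TTTGAA on either strand and as the self-complementary run TTCGAA; in the windows of the members no match of the one overlapped a match of the other. Both are textbook features of genes that peak in G2 and M phase. RefSeq windows from 250 bases before to 50 bases after the transcription start (GRCm38.p6) were given for 35 members and not for Aurkb, Ccna2, Kif20a, Smc4 and Tpx2. A CCAAT box was in the windows of 29 of 35 members (82.9%) and of 41.1% of 27025 genes. A CHR was in 26 of 35 (74.3%) and 21.7%, and both elements were in 25 of 35 (71.4%) and 9.65%. Among the 6260 genes tested here that have a window, the shares were 42.2%, 15.8% and 7.73%. In 42 S phase genes with a window they were 59.5%, 16.7% and 14.3%. Both elements were found in 13 of 19 tested members and in 12 of 16 untested ones, so the description holds for members with few counts as well. A gene with several windows counted when any held the element, and a match of these letters is not a binding site.

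**Figure D5:**
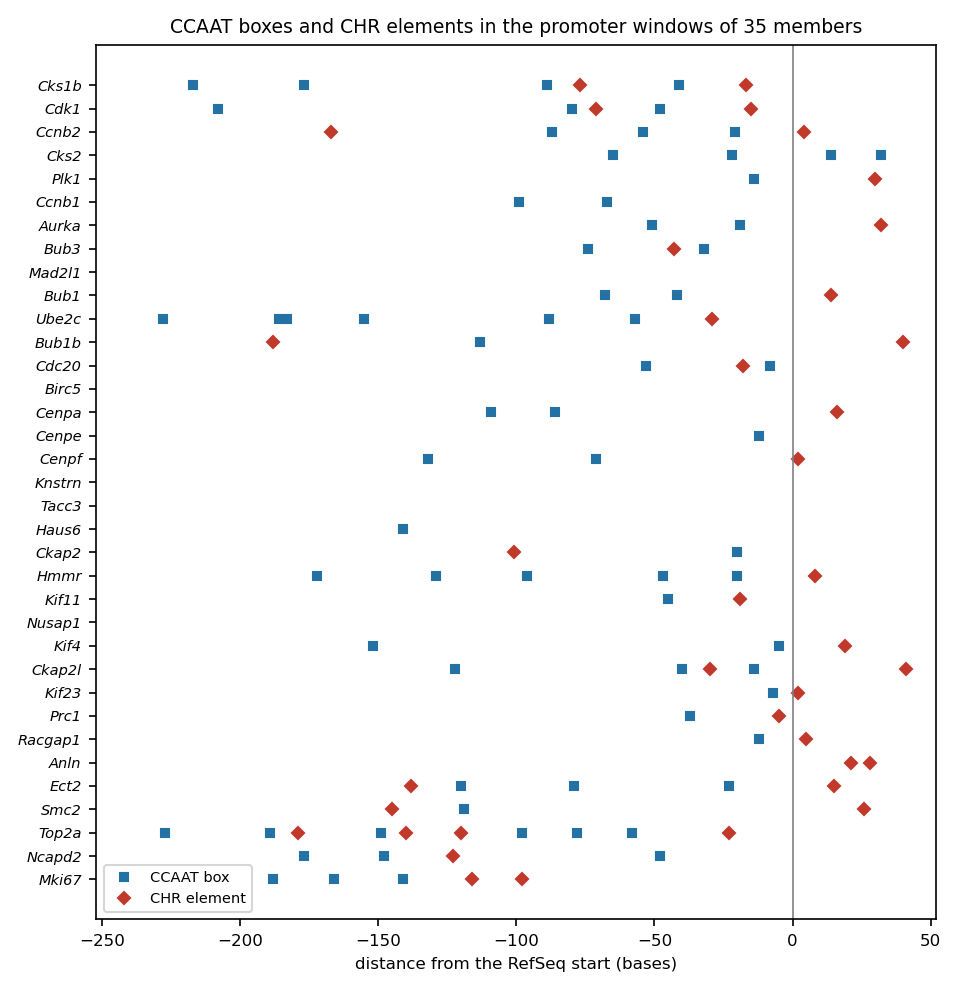
Positions of CCAAT boxes (squares) and CHR elements (diamonds) relative to the RefSeq transcription start (vertical line, in bases) in 1 window of each of 35 members. CHR elements cluster near the start and CCAAT boxes mostly upstream of it; the rows of Knstrn, Nusap1, Tacc3, Mad2l1 and Birc5 hold neither.

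The 250 bases before the start are shown for 6 genes, 5′ to 3′ on the strand of the gene, with CCAAT boxes and CHR elements in capitals. Top2a, Smc2, Cks1b and Tacc3 are shown because they rose in both genotypes, and Cdk1 and Ccnb2 because they are the kinase and a cyclin that start mitosis and rose in control and did not pass in cdKO.
Top2a (chr11:99024190-99024439, minus strand): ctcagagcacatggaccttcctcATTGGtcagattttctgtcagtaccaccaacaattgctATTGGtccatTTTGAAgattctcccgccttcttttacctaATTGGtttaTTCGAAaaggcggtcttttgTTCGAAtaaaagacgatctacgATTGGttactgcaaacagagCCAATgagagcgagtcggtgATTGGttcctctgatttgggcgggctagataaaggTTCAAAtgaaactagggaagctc
Smc2 (chr4:52438971-52439220, plus strand): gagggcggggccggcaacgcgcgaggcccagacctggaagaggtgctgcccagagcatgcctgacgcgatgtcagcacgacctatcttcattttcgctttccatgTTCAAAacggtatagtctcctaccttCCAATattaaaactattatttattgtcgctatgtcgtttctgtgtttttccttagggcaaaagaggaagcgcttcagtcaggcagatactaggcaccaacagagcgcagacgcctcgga
Cks1b (chr3:89418292-89418541, minus strand): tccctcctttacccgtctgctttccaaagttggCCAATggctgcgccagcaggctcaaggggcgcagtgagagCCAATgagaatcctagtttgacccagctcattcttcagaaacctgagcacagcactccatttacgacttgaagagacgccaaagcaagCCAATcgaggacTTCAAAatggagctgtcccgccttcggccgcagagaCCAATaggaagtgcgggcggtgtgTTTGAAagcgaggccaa
Tacc3 (chr5:33657878-33658127, plus strand): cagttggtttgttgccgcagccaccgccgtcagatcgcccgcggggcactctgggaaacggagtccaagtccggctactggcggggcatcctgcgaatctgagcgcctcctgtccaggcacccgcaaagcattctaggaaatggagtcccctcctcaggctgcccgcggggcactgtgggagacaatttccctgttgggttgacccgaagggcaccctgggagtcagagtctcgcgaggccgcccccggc
Cdk1 (chr10:69352913-69353162, minus strand): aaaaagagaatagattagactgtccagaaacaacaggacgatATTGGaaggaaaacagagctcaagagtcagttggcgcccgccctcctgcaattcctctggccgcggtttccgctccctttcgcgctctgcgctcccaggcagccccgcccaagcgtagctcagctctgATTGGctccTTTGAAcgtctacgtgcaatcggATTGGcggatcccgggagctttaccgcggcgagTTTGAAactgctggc
Ccnb2 (chr9:70421555-70421804, minus strand): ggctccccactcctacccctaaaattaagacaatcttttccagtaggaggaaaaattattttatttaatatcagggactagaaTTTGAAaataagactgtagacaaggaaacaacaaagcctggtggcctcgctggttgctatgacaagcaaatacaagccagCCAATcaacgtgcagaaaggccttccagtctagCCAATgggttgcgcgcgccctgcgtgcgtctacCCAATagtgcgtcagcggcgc
Top2a holds 6 CCAAT boxes and 4 CHR elements in this stretch, Cks1b 4 and 2, Cdk1 3 and 2, Ccnb2 3 and 1 and Smc2 1 and 1. Tacc3, which rose in both genotypes, holds 0 of either, as did the windows of Birc5 and Mad2l1, which rose in control.

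Further mitosis genes were read from 5 lists of 128 genes, chosen with earlier results known. Of these, 53 were tested, and 3 rose under overload in cdKO, while 11 rose and 1 fell in control. In cdKO 5.66% were called, all of them higher, against 6.37% of all genes tested called higher and 13% called in either direction. In control 20.8% were called higher, against 10.6% of all genes tested. In either direction the control shares were 22.6% and 21.7%. The median log2 fold changes of the 53 were 0.23 in cdKO and 0.33 in control. Of 7 tested kinetochore genes, 2 rose in cdKO, Zwint (0.85 ± 0.28, adjusted p = 0.0423) and Spc25 (2.72 ± 0.90, adjusted p = 0.0483), and 4 in control. These 4 were Pmf1 (3.38 ± 0.49, adjusted p = 2.32e-05), a subunit of the MIS12 complex, Cenph (4.99 ± 1.01, adjusted p = 0.000959), of the inner kinetochore, Spc25 (2.31 ± 0.79, adjusted p = 0.0381), of the NDC80 complex, and Zwint (0.79 ± 0.28, adjusted p = 0.0476). Of 14 tested spindle genes, Tubb5, a beta-tubulin, rose in both genotypes (1.29 ± 0.38 in cdKO, adjusted p = 0.0322; 2.26 ± 0.39 in control, adjusted p = 0.000500). Spag5, astrin, rose in control (4.13 ± 0.90, adjusted p = 0.00191), as did Stmn1, the tubulin-binding stathmin (1.77 ± 0.64, adjusted p = 0.0481).

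Of 5 further kinases and regulators, Cdca8, borealin, rose in control (2.59 ± 0.80, adjusted p = 0.0217). Of 15 condensin and cohesin genes, Ncapg2 of condensin II rose in control (1.23 ± 0.40, adjusted p = 0.0286), and Pttg1, securin, which guards the cohesin-cleaving protease, fell there by 1.28 on the log2 scale (SE 0.30, adjusted p = 0.00331). Of 12 subunits and partners of the anaphase-promoting complex, Cdc16 (1.49 ± 0.29, adjusted p = 0.000627) and Fzr1 (1.38 ± 0.41, adjusted p = 0.0179) rose in control and 0 passed in cdKO. In both genotype comparisons 0 of the 53 were called by edgeR, with 9 at an unadjusted p under 0.05 in overloaded and 4 in sham muscle, beside 6.97% and 4.09% of all genes tested.

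The S phase genes, which encode the replication machinery, were set beside the mitosis genes. Of 54, 30 were tested, with 5 higher in cdKO and 17 higher in control under overload (6.37% and 10.6% of all genes tested). None were lower, and 0 were called between the genotypes under either load. In overloaded muscle 17 of the 30 had an unadjusted edgeR p under 0.05 between the genotypes (6.97% of all genes tested). The cdKO value was higher for 1 of the 30, with a median log2 fold change of -0.90. The summed level of the S phase genes had an overload to sham ratio of 1.46 in cdKO and 2.47 in control, beside 1.96 and 3.96 for the mitosis genes. Its cdKO to control ratio in overloaded muscle was 0.580, beside 0.547 for the mitosis genes. Per library, the sum of the 40 mitosis genes over the sum of the 54 S phase genes was 1.17, 0.734 and 1.09 in cdKO overload, 1.15, 1.12 and 0.997 in control overload, 0.795, 0.622 and 0.867 in cdKO sham and 0.685, 0.514 and 0.814 in control sham. cdKO overload replicate 2 alone among the overloaded libraries lay in the sham range, as it did for Cdk1 and Ccna2.

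Several measures outside the mitosis genes moved with the libraries that carried the highest mitotic sums, and their part in the results was not tested except where a value is given. Control overload replicate 2 had the most counts (1564581) and the fewest genes detected (16744, against 19700 to 23918 in the other 11 libraries). The summed level of 4 Y-linked genes was 64.9 and 68.9 CPM in control overload replicates 2 and 3, which had the 2 highest mitotic sums, and 118 to 270.4 CPM in the other 10 libraries. With the Y-linked share as a covariate, 7 of 22 members were called higher in cdKO (13.9% of all genes called) and 9 of 22 in control (7.62% called). The 9 were Top2a, Smc2, Ncapd2, Ccna2, Ccnb2, Cks1b, Tacc3, Tpx2 and Haus6. Without the covariate 21.7% of all genes tested were called in control. The covariate is lowest in 2 libraries of control overload, so its effect and that of load in control cannot be fully told apart. Control calls lost with the Y-linked term are to be read with that limit. On the first principal component of all tested genes, which held 46.4% of the variance, cdKO overload replicate 2 (7.39) and control overload replicate 1 (15.8) lay nearest to the sham libraries (-39.9 to -28.7), and the other overload libraries lay at 32.6 to 61.1.

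Markers of other cell types that a Pdgfra+ gate could hold were low beside those of FAPs, which summed to 51658 to 73805 CPM in control overload and 76481 to 95300 CPM in the other 9 libraries. The FAP list itself split under overload. Of its 10 genes, all tested, 2 were called higher and 5 lower in cdKO, and 2 higher and 6 lower in control. Muscle stem cell and myoblast markers, 10 genes, summed to 130.2 to 139 CPM in cdKO overload and 105 to 148 in control overload, against 106 to 111 in cdKO sham and 68.0 to 99.1 in control sham. In the overloaded libraries most of that sum was Vcam1, which rose in both genotypes (adjusted p = 0.00706 in cdKO and 0.00196 in control), and Msc, while Pax7 had 0 to 6 counts, Myod1 0 to 1 and Cdh15 0 to 3 in each library. The myoblast list did not move as 1: of its 4 tested genes, 1 was called higher and 0 lower in cdKO, and 2 higher and 1 lower in control. Over all genes tested, 13% and 21.7% were called in either direction. The fold change was positive for 2 of the 4 in each genotype. Macrophage markers, 12 genes, summed to 10.1 to 65.0 CPM in cdKO overload and 9.74 to 67.2 in control overload, against 27.1 to 49.5 in cdKO sham and 52 to 67.6 in control sham, with Lyz2 at 0 in 11 libraries. Lymphocyte markers summed to at most 32.4 CPM. Endothelial markers stood at 51.0 to 80.6 CPM in cdKO overload and 23.4 to 155 in control overload, against 106 to 288 in cdKO sham and 137 to 266 in control sham. Pericyte markers stood at 360 to 372 CPM in cdKO overload and 187 to 291 in control overload, against 418 to 607 in cdKO sham and 437 to 567 in control sham. Schwann cell markers stood at 244 to 377 CPM in cdKO overload and 183 to 281 in control overload, against 475 to 560.2 in cdKO sham and 304 to 537 in control sham. The pericyte and Schwann cell sums were thus lower in the overloaded libraries of either genotype, without overlap. Of the 6 Schwann cell markers only 1 had enough counts to be tested, so that sum may rest mainly on 1 gene. Erythroid markers, 5 genes, went opposite ways in the genotypes. They summed to 0 to 1.12 CPM in cdKO overload and 12.3 to 281 in control overload, against 5.50 to 129.5 in cdKO sham and 0 to 4.5 in control sham. All control overload libraries lay above all control sham libraries and all cdKO overload libraries, so these markers were high in the group with the highest mitotic sums. Within that group the highest erythroid sum, 281 CPM, was in replicate 1, which had the lowest mitotic sum.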

How the data were processed

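The libraries were made from sorted cells by the CEL-Seq2 protocol, per the labels' protocols. Reads were trimmed with Trim Galore 0.6.6, aligned with HISAT2 2.2.1 to GRCm38 and counted with featureCounts 2.0.1, and DESeq2 1.26.0 is listed, per the submitters' processing notes; the strand setting, annotation release and molecular identifiers were not given in sources used here. The authors deposited raw counts per gene. From these, edgeR 4.0.16 (R 4.3.3; filterByExpr, TMM, robust quasi-likelihood test) fitted 4 group means to all 12 libraries, with p-values adjusted over 8161 genes and a threshold of 0.05. DESeq2 1.42.0, limma 3.58.1 voom, other scalings, no filter, thinning, a replicate term, a Y-linked covariate and left-out libraries were alternatives. The fit was tested on simulated data. Gene symbols of all 40 members matched GENCODE M21; promoters are from RefSeq (GRCm38.p6). Every member is named, and values in each library are given for those with the smallest p-values, those at 0 in a group and those that passed in neither genotype. The members and lists were chosen with earlier results of these data known. Intervals and floors cover counting error only.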

Additional observations from a re-analysis of the deposited data

How the results depend on the processing

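In control, 18 of 22 tested members were called higher under overload. The count was 6 of 10 when counts were thinned to the smallest library (14.2% of all genes called) and 9 of 22 with a Y-linked covariate (7.62% called). Over the settings that left out 1 library it ran from 13 of 27, without control sham replicate 2, to 22 of 28, without control overload replicate 1. In those 2 settings 1261 of 8560 and 2508 of 9103 genes were called, so the calls over all genes moved as well. In cdKO, 5 of 22 were called. The count was 9 of 27 without cdKO overload replicate 2 (15% of all genes called). It was 9 of 22 with that library and control overload replicate 2 both left out, a setting chosen after seeing the data (1385 of 8073 genes called). Over all left-out libraries it ran from 4 to 9. Without cdKO overload replicate 3 it was 4 of 27, with 423 of 8573 genes called. Between the genotypes in overloaded muscle the count of 0 became 2 with no filter on low counts and ranged over 0 to 2 with 1 library left out; in sham muscle and for the interaction it was 0 under all settings run. Correlations between the deviations of same-numbered libraries from their group means ran from -0.228 to 0.268. The highest, 0.199 to 0.268, were all between replicate 2 libraries, as was the lowest. With 3 libraries a group this cannot decide whether the replicate numbers pair the libraries. A fit with the replicate block called 6 of 22 members in cdKO and 19 of 22 in control, where 1035 and 1752 of 8161 genes were called. It called 0 members in the other 3 comparisons. Of 109 values of the 5 members called in cdKO and 387 of the 18 called in control, 103 and 349 kept direction and call, 6 and 38 kept direction and lost the call, and 0 reversed. The summed level in cdKO sham was 363 CPM over the tested members and 330 CPM without Bub3, and in control sham 299.7 CPM without Bub3. With 1 library left out the sums ranged over 759 to 1026 CPM in cdKO overload, 1355 to 1817 in control overload, 412 to 480.1 in cdKO sham and 346 to 442 in control sham. The causes were not tested. Low counts limit the 18 untested members.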
